A study of Mus musculus with 2 samples.

Results

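DNA replication and S phase genes were followed in single cells of the healing mouse tendon, as 42 genes that copy DNA, supply its building blocks or open S phase. They were chosen by function and found by gene symbol, all 42 among the 32285 features of the deposited count matrices. Cells came from the injured tendon area of mice aged 12 weeks, 14 days after tendon injury, and were captured in droplets in which each RNA molecule is counted by a unique molecular identifier (UMI). Each genotype was 1 library made from 3 pooled mice, labelled TrkA WT with the sample title Control, and TrkA F592A with the sample title INMPP1. TrkA is the receptor tyrosine kinase of nerve growth factor, and F592A is a point mutation that opens its kinase to a bulky inhibitor of the kind that title names. The labels do not say if WT mice were dosed, how much inhibitor was used or when, so effects of blocked kinase, mutation and inhibitor cannot be told apart. A point mutation is not read by UMI counts, so these data hold no check of the genotype labels. With 1 library per genotype there was no replicate check and no test. The 95% intervals below cover counting error only.

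DNA is copied from origins that are licensed in G1, when the origin recognition complex, Cdc6 and Cdt1 load the ring-shaped MCM helicase. At S phase entry, Cdc45 and the GINS complex turn that ring into an active helicase, primase and polymerases build the new strands on the sliding clamp Pcna, and Fen1 and Lig1 join the lagging strand fragments. Transcription of many of these genes is driven by E2F factors, which are released when cyclin-dependent kinases inactivate the Rb protein. In an injured tendon, resident tenocytes and surrounding fibroblasts divide during the early weeks of healing, together with vessel and immune cells.

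The E2F sites of the family are shown because they are the sequence feature for which these genes are best known. RefSeq promoters of build GRCm38.p6, covering 250 bases before to 50 bases after each start, were found for 34 of the 42 members. The motifs TTTCCCGC, TTTGGCGC, TTTCGCGC and TTTGCCGC were searched on both strands, with overlapping matches each counted. At least 1 match was present in 14 of the 34 genes (41.2%), against 2.61% of all 27025 genes with a promoter entry and 4.61% of the 10618 of those measured in stromal cells. By role, 7 of 9 matched licensing genes held a match, and 0 of 5 nucleotide supply genes. Among 27 mitosis and G2 genes, 1 held it. The CCAAT box, searched on both strands, was in 58.8% of member genes, 85.2% of the mitosis and G2 genes and 41.1% of all genes. Of 9 genes with a match before the RefSeq start, 3 had a window wholly outside the GENCODE M21 gene as well. Windows of these 3 are shown, read 5′ to 3′ on the gene's strand, with every motif match in capitals.
Mcm5, chr8:75109326-75109393, plus strand: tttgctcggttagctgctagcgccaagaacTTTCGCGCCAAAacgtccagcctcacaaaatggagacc
Mcm6, chr1:128359778-128359845, minus strand: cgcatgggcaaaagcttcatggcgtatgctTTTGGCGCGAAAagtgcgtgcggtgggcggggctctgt
Pola1, chrX:93632256-93632323, minus strand: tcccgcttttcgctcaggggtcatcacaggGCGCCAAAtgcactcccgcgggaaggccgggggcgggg
In Mcm5 and Mcm6 a match on each strand overlaps, which gives the longer run of capitals. Mcm6 held a further match, 39 bases before its start, that the window shown does not reach. In Pola1 the match is on the opposite strand, so the capitals read as its reverse complement. A match is a description of the letters, not evidence of binding. A member without a match in this window may still hold other E2F sites.

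After filters, 11254 WT and 8449 F592A cells were analysed, and the median cell held 15873.5 and 17880 UMIs. Cells were gated by summed UMIs of marker genes into stromal cells (collagen and decorin-type markers; 6698 WT and 4800 F592A), macrophages (2256 and 1494), blood endothelial cells (538 and 598), mural cells of the vessel wall (499 and 543) and smaller classes. The stromal marker list summed to 71682 CPM (UMIs of a gene per 1000000 UMIs of the class) in the WT library and 76414 CPM in the other, against at most 5309 CPM in any other gated class. The macrophage and mural lists were likewise highest in their own class, while the blood endothelial list was nearly as high in lymphatic endothelial cells. Between the libraries 764 cell barcodes were shared, of which 114 WT and 112 F592A barcodes were among the analysed cells, at a median of 1854 and 1957.5 UMIs. Leaving them out gave a stromal share ratio of 0.750 and 9 stromal genes past the fold used below, as with them.

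In stromal cells, replication RNA was lower in the F592A library across nearly the whole family. The 42 members together gave 505 CPM (WT) and 381 CPM (F592A), a log2 ratio of −0.41 (95% interval −0.42 to −0.39). The median of the 42 single log2 ratios was −0.42, against −0.07 for all 13947 genes measured with at least 100 UMIs. By direction, 39 of 42 members lay below the median of all genes, 36 had an interval below 0 and 0 had one above 0. Intervals off 0 were not counted over all genes, so these 2 interval counts have no background share beside them. At least 1.5-fold lower were 9 of 42 members, beside 4.60% of all measured genes, and 0 were at least 1.5-fold higher, beside 3.41%. Those 9 were Tk1, Chaf1b, Cdc45, Tyms, Uhrf1, Prim1, Gins2, Mcm5 and Rfc5. Markers of macrophages also differed in the stromal class, at 66.5 CPM (WT) and 37.4 CPM (F592A) against 13264 and 11895 CPM in macrophages themselves, and all-class depth differed as above. The median mitochondrial share of stromal cells was 4.78% (WT) and 3.97% (F592A). The part of these differences in the result was not tested. Without cells positive for the mitosis genes described below, the median of the members minus that of all genes was −0.18 in place of −0.35.

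**Figure D1:**
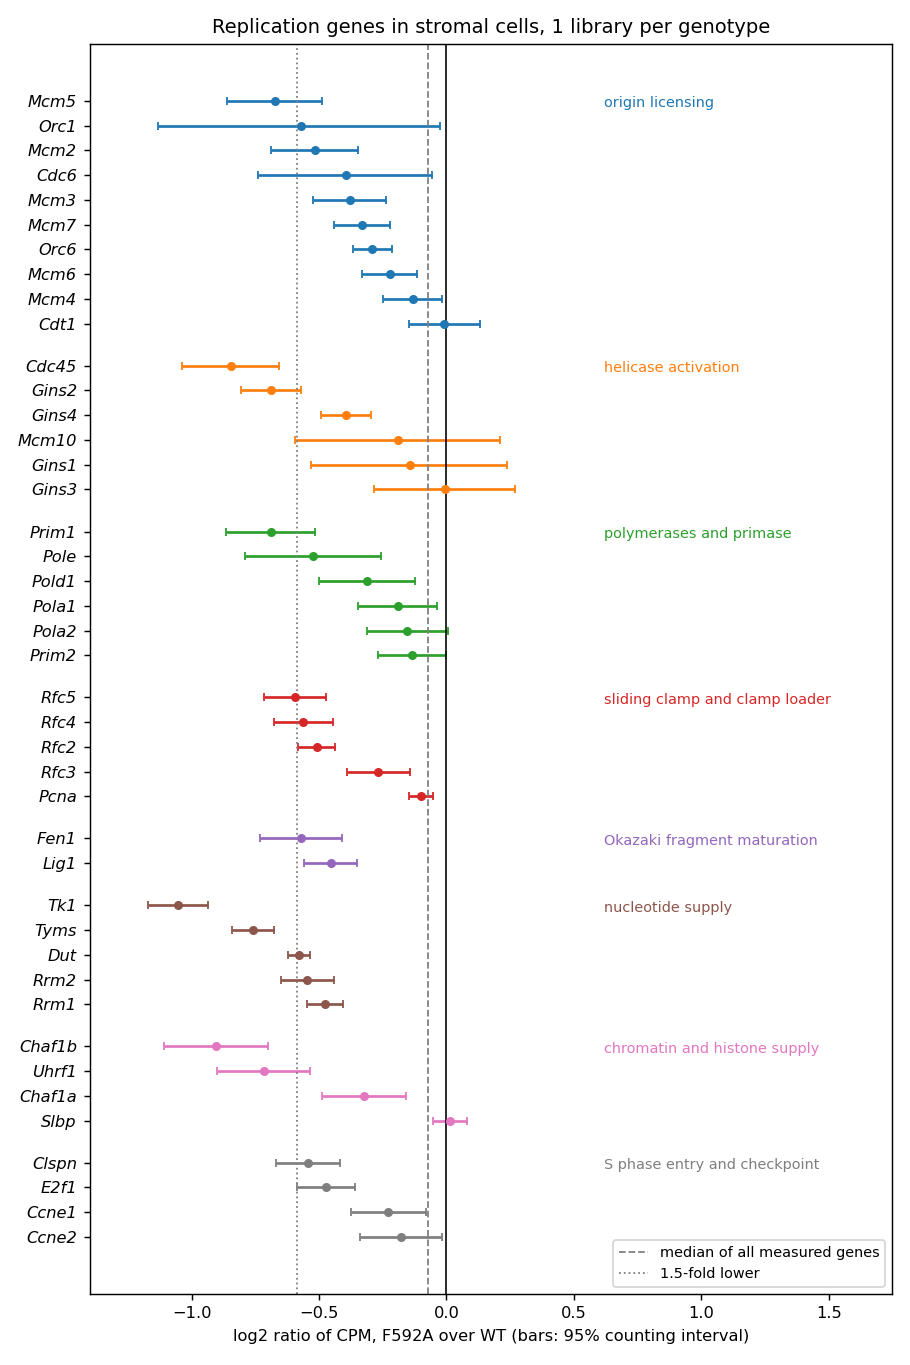
Log2 ratio of CPM, F592A over WT, of each of the 42 replication genes in stromal cells, grouped and coloured by role. Points are single ratios from 1 library per genotype, bars are 95% counting intervals, the dashed line is the median of all measured genes and the dotted line marks 1.5-fold lower; Tk1 lies lowest at −1.05 and Slbp highest at 0.01.

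Nucleotide supply genes differed most as a group, from 161 CPM summed in WT to 105 CPM in F592A (log2 −0.62, −0.65 to −0.59). Tk1, the thymidine kinase of the salvage route (chr11:117815526-117826092, minus strand, GRCm38), was at 13.8 CPM in WT (13.2 to 14.4) and 6.66 CPM in F592A (6.21 to 7.13), a log2 ratio of −1.05 (−1.17 to −0.94), the lowest of all 42. Tyms, thymidylate synthase, was at 24.4 CPM (23.7 to 25.2) and 14.5 CPM (13.8 to 15.1), a log2 ratio of −0.76 (−0.84 to −0.68). Both enzymes make thymidylate, by salvage and by new synthesis. Dut, which removes dUTP, gave the most UMIs of any member in stromal cells and was at 80.8 CPM (WT) and 54.1 CPM (F592A) (log2 −0.58, −0.62 to −0.54). The ribonucleotide reductase subunits Rrm1 and Rrm2, which make deoxyribonucleotides, had log2 ratios of −0.48 (−0.55 to −0.40) and −0.55 (−0.65 to −0.44). All 5 intervals in this role lay below 0.

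Origin licensing genes summed to 79.2 CPM (WT) and 64.9 CPM (F592A) (log2 −0.29, −0.33 to −0.25). Subunits of the MCM ring were not equally lower. Mcm5 was at 4.59 CPM (WT) and 2.88 CPM (F592A), a log2 ratio of −0.67 (−0.86 to −0.49), and Mcm2 stood at −0.52 (−0.69 to −0.35). Mcm4 was at 9.38 CPM and 8.56 CPM, a log2 ratio of −0.13 (−0.25 to −0.02), and Mcm6 stood at −0.22 (−0.33 to −0.12). The intervals of Mcm5 and Mcm4 did not overlap, although their proteins form 1 ring. Mcm3 and Mcm7 lay between them at −0.38 and −0.33. Of the loading factors, Orc6 was at −0.29 (−0.37 to −0.21), while Orc1 (−0.57, −1.13 to −0.03) rested on 83 and 44 UMIs and Cdc6 (−0.40, −0.74 to −0.06) on 194 and 116. Cdt1 was at 6.09 CPM (WT) and 6.06 CPM (F592A) (log2 −0.01, −0.15 to 0.13). Gm20388 overlaps the Cdt1 gene on the same strand, and the part of that overlap in the Cdt1 counts was not tested.

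Helicase activation genes summed to 33.9 CPM (WT) and 23.8 CPM (F592A) (log2 −0.51, −0.58 to −0.45), and Gins2 and Gins4 made up most of that gap. Cdc45, the helicase cofactor, was at 4.74 CPM in WT (4.40 to 5.09) and 2.64 CPM in F592A (2.36 to 2.94), a log2 ratio of −0.85 (−1.04 to −0.66). Gins2 was at 11.7 and 7.26 CPM (log2 −0.69, −0.81 to −0.57), and Gins4 at 14.2 and 10.8 CPM (log2 −0.39, −0.49 to −0.30). Of the other GINS subunits, Gins1 stood at −0.14 (−0.53 to 0.24), and Gins3 at −0.01 (−0.28 to 0.27) with 1.59 CPM (WT) and 1.58 CPM (F592A). Mcm10, which helps activate the helicase, stood at −0.19 (−0.60 to 0.21). These last 3 genes had the fewest UMIs of the role, and a difference was not detectable at this depth.

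Polymerase and primase genes summed to 28.4 CPM (WT) and 23.2 CPM (F592A) (log2 −0.29, −0.36 to −0.22). Prim1, the catalytic primase subunit, was at 5.31 and 3.29 CPM (log2 −0.69, −0.86 to −0.52), whereas its partner Prim2 stood at −0.14 with an interval that only just excluded 0. Pola1 and Pola2, of the same initiating complex, were at −0.19 and −0.15, and the interval of Pola2 held 0. The leading strand polymerase Pole stood at −0.52 and the lagging strand polymerase Pold1 at −0.31. Pcna, the sliding clamp, was among the genes with most UMIs and differed little, at 52.9 CPM in WT (51.8 to 54.0) and 49.4 CPM in F592A (48.1 to 50.6), a log2 ratio of −0.10 (−0.15 to −0.05). The clamp loader was lower by more, with Rfc5 at −0.59 (−0.72 to −0.47), Rfc4 at −0.56, Rfc2 at −0.51 and Rfc3 at −0.27. Fen1, the flap nuclease, and Lig1, the ligase, were at −0.57 (−0.73 to −0.41) and −0.45 (−0.56 to −0.35).

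Chromatin and histone supply genes were split. Chaf1b, a subunit of the histone chaperone CAF-1, was at 4.29 CPM in WT (3.97 to 4.63) and 2.29 CPM in F592A (2.04 to 2.58), a log2 ratio of −0.90 (−1.11 to −0.70). Uhrf1, which carries DNA methylation over to the new strand, was at 4.92 CPM (4.58 to 5.28) and 2.99 CPM (2.69 to 3.31), a log2 ratio of −0.72 (−0.90 to −0.54). The other CAF-1 subunit tested, Chaf1a, stood at −0.32 (−0.49 to −0.16). Slbp, which binds the stem-loop of histone mRNAs, was at 26.9 CPM in WT (26.1 to 27.8) and 27.2 CPM in F592A (26.3 to 28.1), the highest log2 ratio of the 42 at 0.01 (−0.05 to 0.08). Of the S phase entry and checkpoint genes, the activator E2f1 had a log2 ratio of −0.47 (−0.59 to −0.36) and Clspn, a fork checkpoint mediator, at −0.54 (−0.67 to −0.42). The E-type cyclins, which drive entry into S phase, were lower by less, Ccne1 at −0.23 (−0.37 to −0.08) and Ccne2 at −0.18 (−0.34 to −0.02). Across the 34 genes with a promoter entry, the median stromal log2 ratio was −0.36 in the 14 with an E2F match and −0.53 in the 20 without.

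A smaller share of stromal cells held several replication RNAs in the F592A library. Each cell was thinned to 2000 UMIs, so that depth did not set the share, and a cell was counted with at least 2 member UMIs, as the average over all random draws. The share was 18.6% of 6549 WT cells (17.6 to 19.5) and 13.9% of 4740 F592A cells (12.97 to 14.96), a ratio of 0.750 (0.687 to 0.818). Without thinning, nearly every cell passed, at 92.0% and 91.3%. Neutrophils, which leave the cell cycle before they reach tissue, were taken as background and gave 4.84% and 5.11%. Their median was 2498 and 3070 UMIs, against 22051 and 24349.5 in stromal cells before thinning. The stromal marker list was at 4006 CPM (WT) and 1975 CPM (F592A) in neutrophils, and its part in their share was not tested. The gap widened toward cells rich in replication RNA. Cells with exactly 2 member UMIs were 11.4% and 9.67%, those with 5 to 9 were 1.97% and 0.958%, and those with 10 or more were 0.500% and 0.185%. Required counts of 1 or 3 UMIs accordingly gave ratios of 0.890 and 0.594, and thinning to 1000 or 4000 UMIs gave 0.672 and 0.828.

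**Figure D2:**
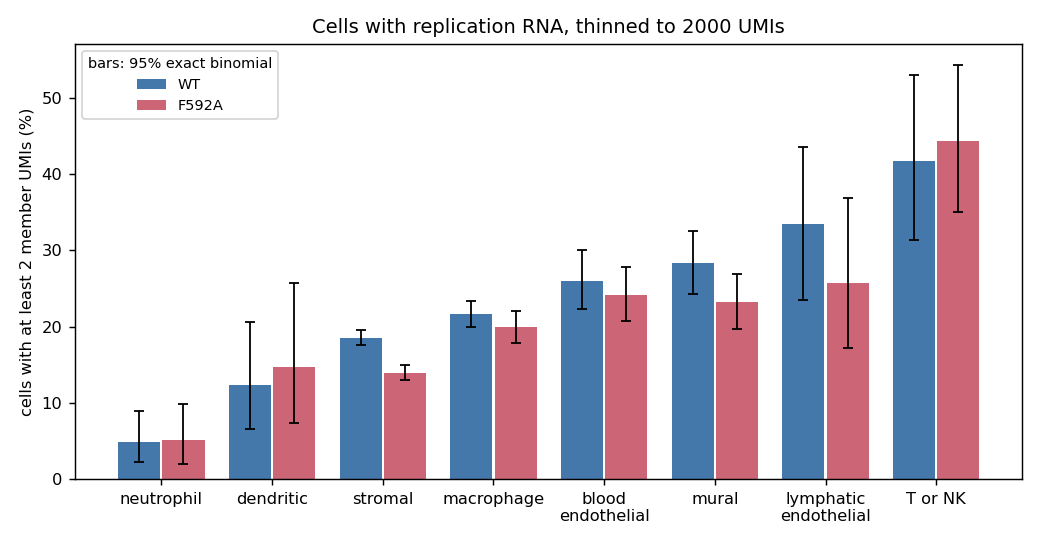
Share of cells with at least 2 UMIs of the 42 replication genes after thinning to 2000 UMIs (y axis, percent), by cell class and genotype. Bars are 1 library each with exact binomial 95% intervals; neutrophils stand at 4.84% and 5.11%, and the stromal intervals of the 2 libraries do not overlap.

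In macrophages the gap was smaller in value, and its difference from the stromal gap was not tested. The members summed to 557 CPM (WT) and 496 CPM (F592A) macrophages (log2 −0.17, −0.21 to −0.13), with a median member log2 ratio of −0.28 against −0.08 for all genes. Among 37 measured members, 2 were at least 1.5-fold lower, beside 3.95% of all genes, and 0 higher, beside 1.85%. With TMM factors or DESeq2 size factors in place of class totals, that count was 1. The 2 were Orc6, at 14.8 and 9.80 CPM (log2 −0.59, −0.85 to −0.34), and Ccne2, at −0.69 (−1.29 to −0.12). Tk1 was at 11.0 and 7.77 CPM (log2 −0.50, −0.79 to −0.21). Tyms was at 8.85 and 8.72 CPM (log2 −0.02, −0.32 to 0.27), and Lig1 stood at −0.03. Pcna was at 133 and 131 CPM and Slbp at 44.7 and 44.2 CPM. The share of macrophages with at least 2 member UMIs was 21.6% and 19.9%, a ratio of 0.922 whose interval (0.810 to 1.05) held 1. Without thinning it was 82.6% and 86.5%, a ratio of 1.05 (1.02 to 1.08), at a median of 10374.5 and 13352 UMIs per cell. The median mitochondrial share of macrophages was 4.14% (WT) and 3.22% (F592A), and its part in the result was not tested.

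Both kinds of vessel cell had lower replication RNA in F592A. In blood endothelial cells the members summed to 722 CPM (WT) and 554 CPM (F592A) (log2 −0.38, −0.44 to −0.33), with a median of −0.40 against −0.09 for all genes. Of 28 measured members, 11 were at least 1.5-fold lower, beside 7.94% of all genes, and 0 higher, beside 2.58%. Gins2 was at 10.1 and 3.42 CPM (log2 −1.56, −2.21 to −0.94), from 70 and 32 UMIs. Tk1 was at 13.1 and 4.92 CPM (log2 −1.41, −1.96 to −0.89), Rrm2 at −1.14 (−1.76 to −0.53) and Clspn at −1.01 (−1.41 to −0.62). Slbp stood at 0.11 (−0.09 to 0.30) and Pcna at −0.07 (−0.20 to 0.06). The share of cells was 26.1% and 24.1%, a ratio of 0.926 (0.755 to 1.14). Without thinning it was 80.5% and 87.1%, a ratio of 1.08 (1.03 to 1.14), at a median of 11008 and 14588 UMIs per cell. With a minimum of 20 UMIs in place of 100, 18 of 40 members were at least 1.5-fold lower, beside 11.8% of all genes. With 1 UMI in each library as the sole requirement 20 of 42 were, beside 16.0%. In this class the macrophage marker list was at 80.3 CPM (WT) and 46.8 CPM (F592A) and the median mitochondrial share at 5.22% and 4.13%, and their part in the result was not tested.

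In mural cells, pericytes and smooth muscle of the vessel wall, the members summed to 759 and 528 CPM (log2 −0.52, −0.59 to −0.46), with a median of −0.57 against −0.09 for all genes. Of 23 measured members, 11 were at least 1.5-fold lower, beside 8.98% of all genes, and 0 higher, beside 4.57%. Tk1 was at 23.6 CPM (WT) and 7.17 CPM (F592A), a log2 ratio of −1.72 (−2.23 to −1.23). Prim1 (−1.07), Tyms (−1.06, −1.37 to −0.76), Rfc3 (−1.04) and Lig1 (−0.94) followed, and Dut was at 76.3 and 40.9 CPM (log2 −0.90, −1.12 to −0.68). Mcm4 (0.09), Mcm6 (−0.03), Slbp (−0.08) and Pcna (−0.16) had intervals that held 0. The share of cells was 28.3% and 23.2%, a ratio of 0.820 (0.666 to 1.01), and 1.03 without thinning. With a minimum of 20 UMIs 22 of 39 members were at least 1.5-fold lower, beside 12.2% of all genes. With the sole requirement of 1 UMI in each library 24 of 42 were, beside 15.8%. Other values moved with the library here too, and their part was not tested. The macrophage marker list was at 95.8 CPM (WT) and 40.8 CPM (F592A), the stromal list at 5309 and 4168 CPM, and the median mitochondrial share at 6.44% and 5.21%.

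**Figure D3:**
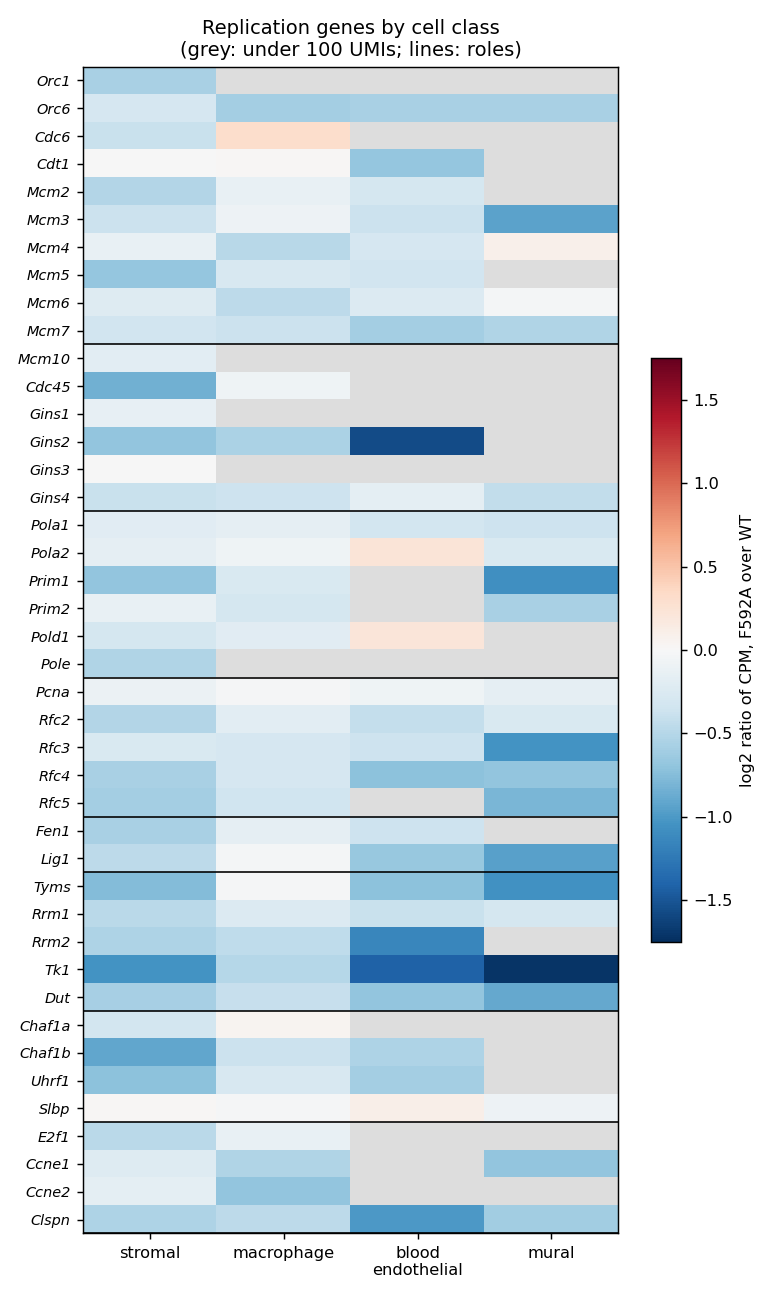
Log2 ratio of CPM, F592A over WT, of the 42 replication genes (rows, in order of role, black lines between roles) in stromal cells, macrophages, blood endothelial and mural cells (columns). Blue is lower in F592A, red higher, and grey marks genes with under 100 UMIs over both libraries; Tk1 is blue in all 4 classes, from −0.50 to −1.72.

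Smaller classes were thin. Lymphatic endothelial cells (94 and 86 cells) summed to 1007 and 585 CPM (log2 −0.78, −0.93 to −0.64), with Dut at −1.41 and Tyms at −1.35. Only 4 members were measured there, and 2 of these had an interval that held 0. The share of lymphatic endothelial cells with at least 2 member UMIs was 33.5% and 25.7%, a ratio of 0.767 whose interval (0.482 to 1.22) held 1. T or NK cells (93 and 114) summed to 1279 and 933 CPM (log2 −0.45, −0.63 to −0.28), while their share with at least 2 member UMIs was 41.7% and 44.4%. Dendritic cells (101 and 69) gave 359 and 347 CPM, and neutrophils gave 223 CPM in both libraries.

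Every member was at a higher level in stromal cells with mitosis RNA. Stromal cells with at least 2 UMIs of a list of 30 mitosis and G2 genes, none of them a member, in 1 random thinning to 2000 UMIs were called mitosis-positive (443 WT and 160 F592A), and those with 0 mitosis-zero (5426 and 4172). Neutrophils passed this cut in 4.93% (WT) and 6.22% (F592A) of cells over all draws, so some mitosis-positive calls may be background. Member CPM in stromal cells summed to 1769 in mitosis-positive and 353 in mitosis-zero WT cells, and to 1676 and 306 in the same F592A cells. All 42 members were higher in mitosis-positive cells in both libraries, with intervals above 0. The same count was not made over all genes, so how far it is particular to the members was not tested. In WT the log2 ratio ran from 6.04 for Tk1, 4.17 for Mcm10, 3.95 for Mcm5, 3.93 for Clspn and 3.91 for Uhrf1 down to 1.21 for Gins4 and 0.91 for Slbp. Across the 42 genes, Pearson's r between this log2 ratio and the log2 ratio of F592A over WT was −0.65 with the WT and −0.66 with the F592A cells, and Spearman's rho was −0.61 and −0.63. Genes are not independent replicates, and both axes come from the same 2 libraries and partly the same UMIs.

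**Figure D4:**
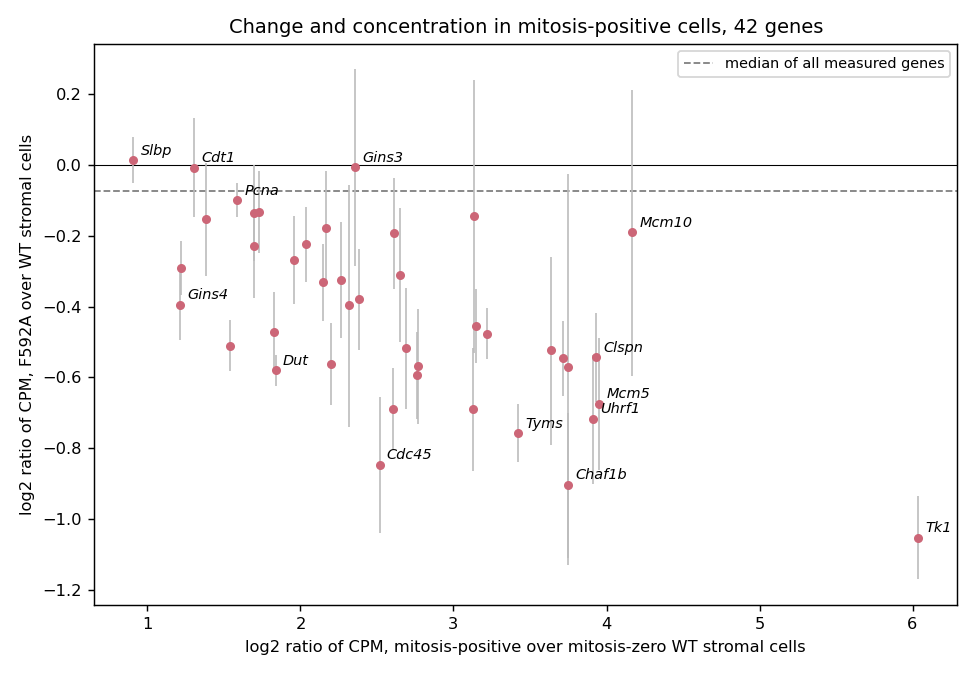
Each point is 1 of 42 replication genes in stromal cells. The x axis is the log2 ratio of CPM between mitosis-positive and mitosis-zero WT cells, the y axis the log2 ratio of CPM of F592A over WT with its 95% counting interval; Tk1 lies at 6.04 and −1.05, Slbp at 0.91 and 0.01.

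Within those 2 kinds of stromal cell the genotypes differed less than in the whole class. Among mitosis-positive cells the members summed to a log2 ratio of −0.08 (−0.11 to −0.04), and among mitosis-zero cells to −0.21 (−0.23 to −0.19), against −0.41 over all stromal cells. The median of the 40 members measured in each was 0.03 in mitosis-positive cells, beside −0.04 for all genes, so sum and median differed in sign there. In mitosis-zero cells it was −0.20, beside −0.07. The mitosis and G2 genes themselves were lower by more than the members, with a median log2 ratio of −1.02. At least 1.5-fold lower were 27 of 30, beside 4.60% of all genes, and 0 were higher, beside 3.41%. Ube2c, which helps degrade mitotic cyclins, was at 50.1 CPM (WT) and 17.3 CPM (F592A) (log2 −1.54), followed by Ccnb2 (−1.36) and Cdca3 (−1.33). Stromal cells with at least 2 thinned UMIs of both lists were 4.28% and 2.00%, those positive for members alone 14.3% and 11.9%, and those positive for the mitosis list alone 2.52% and 1.43%. The share positive for the mitosis list was 6.80% and 3.43%, while neutrophils gave 4.93% and 6.22%, so no ratio is read from these shares. In macrophages 0 of 25 measured mitosis and G2 genes were at least 1.5-fold lower, beside 3.95% of all genes. In blood endothelial and mural cells 17 of 19 and 19 of 21 were, beside 7.94% and 8.98%.

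Within the stromal class, subsets were gated by 5 markers each. Replication RNA differed most in 3 of them. In myofibroblast-like cells, with contractile markers, members summed to 712 CPM (WT) and 418 CPM (F592A) (log2 −0.77, −0.84 to −0.70), and 26 of 36 measured members were at least 1.5-fold lower, beside 5.86% of all genes. In Pi16 fibroblast-like cells the sums were 563 and 366 CPM (log2 −0.62, −0.66 to −0.58), with 24 of 38 members lower, beside 8.66%. Stromal cells in none of the named subsets gave 606 and 353 CPM (log2 −0.78, −0.84 to −0.73), with 26 of 33 lower, beside 11.0%. Sheath-like cells gave 624 and 501 CPM (log2 −0.32, −0.36 to −0.27), with 9 of 36 lower, beside 10.0%. Tenocyte-like cells gave 404 and 360 CPM (log2 −0.17, −0.19 to −0.14), with 2 of 38 lower, beside 2.78%. Chondrocyte-like cells gave 410 and 383 CPM (log2 −0.10, −0.14 to −0.05), with 0 of 35 lower, beside 4.31%, and 1 higher, beside 3.33%. In the other 5 subsets 0 members were at least 1.5-fold higher, beside 2.98% of all genes in myofibroblast-like, 3.05% in Pi16 fibroblast-like, 3.84% in the unnamed, 3.82% in sheath-like and 2.15% in tenocyte-like cells. Medians of members and of all genes were −0.81 and −0.08 in myofibroblast-like, −0.73 and −0.15 in Pi16 fibroblast-like and −0.83 and −0.16 in unnamed cells. They were −0.31 and −0.14 in sheath-like and −0.13 and −0.04 in tenocyte-like cells. In chondrocyte-like cells the 2 medians were nearly equal, at −0.029 and −0.026, although the interval of the sum lay below 0.

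Single genes varied between subsets. Mcm5 was at 6.21 and 2.17 CPM in Pi16 fibroblast-like cells (log2 −1.52, −2.01 to −1.05) and at 10.1 and 3.58 CPM in myofibroblast-like cells (log2 −1.49, −2.28 to −0.79). In tenocyte-like cells it was at 2.14 and 1.93 CPM (log2 −0.15, −0.53 to 0.23), in chondrocyte-like cells at 0.31 (−0.19 to 0.81) and in sheath-like cells at 0.45 (−0.03 to 0.95). Tk1 had a log2 ratio below 0 in all 6 subsets, from −2.18 (−2.64 to −1.74) in the unnamed stromal cells and −1.49 (−1.81 to −1.18) in sheath-like cells to −0.20 (−0.55 to 0.14) in chondrocyte-like cells. Of the 42 members, 17 were below 0 in all 6 subsets. Tyms and Dut were among them, Dut between −0.34 in tenocyte-like and −0.84 in Pi16 fibroblast-like cells, each with an interval below 0. The count behind those 17 was not made over all genes, whose median was itself below 0 in each subset, from −0.03 to −0.16.

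The share of cells with at least 2 member UMIs was lower in F592A in all 6 subsets. It was 26.1% and 17.1% in myofibroblast-like cells (ratio 0.654, 0.456 to 0.938) and 19.7% and 12.4% in Pi16 fibroblast-like cells (0.630, 0.515 to 0.770). It was 22.0% and 15.3% in the unnamed stromal cells (0.697, 0.542 to 0.896) and 21.7% and 16.5% in sheath-like cells (0.763, 0.599 to 0.971). It was 15.4% and 13.4% in tenocyte-like cells (0.871, 0.752 to 1.01) and 15.8% and 13.5% in chondrocyte-like cells (0.853, 0.662 to 1.10), where the intervals held 1. Myofibroblast-like cells had the highest share in WT and were themselves 5.62% of WT and 1.99% of F592A cells. With the subsets weighted equally the stromal share ratio was 0.731, and without myofibroblast-like cells the stromal median of members minus all genes was −0.28.

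**Figure D5:**
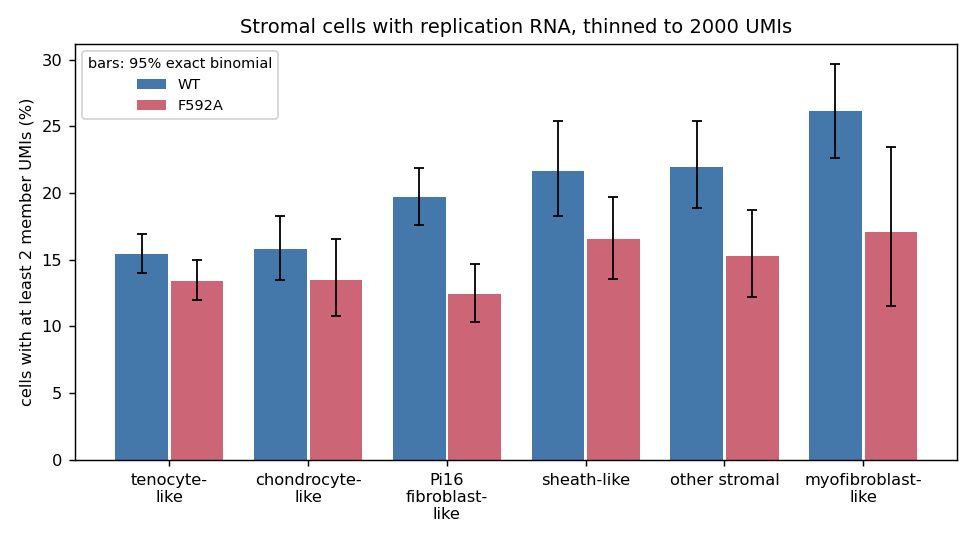
Share of stromal cells with at least 2 UMIs of the 42 replication genes after thinning to 2000 UMIs (y axis, percent), by stromal subset and genotype. Bars are 1 library each with exact binomial 95% intervals; the F592A bar is lower in all 6 subsets, from 12.4% to 17.1% against 15.4% to 26.1% in WT.

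Other genes of the pathway, from fixed lists outside the 42, were mostly less than 1.5-fold apart in stromal cells. Of 31 measured fork and licensing genes, 4 were at least 1.5-fold lower and 0 higher. Of all genes measured in stromal cells, 4.60% were lower and 3.41% higher, the share to set beside each list here. Gmnn, the inhibitor of Cdt1, was at 7.03 and 3.45 CPM (log2 −1.02, −1.19 to −0.86), Top2a, the topoisomerase that untangles copied DNA, at 44.2 and 21.9 CPM (log2 −1.01, −1.08 to −0.95), and Dscc1, of an alternative clamp loader, at −0.76. Of 27 replication-coupled repair and chromatin genes, 5 were lower and 0 higher, with the nuclease Exo1 at −1.07, Fanci of the Fanconi pathway at −1.01 and the histone chaperone Asf1b at −0.97. Of 21 E2F, Rb and G1 regulators, 3 were lower and 0 higher, namely Ccna2 (12.0 and 5.84 CPM, log2 −1.04), Cdk6 (33.2 and 19.2 CPM, log2 −0.79) and E2f7 (−0.63). The medians of these lists were −0.25, −0.21 and −0.14, against −0.07 for all genes.

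Inhibitors of cyclin-dependent kinases, which hold cells before S phase, were not higher in F592A stromal cells as a group. Of 7, 2 were at least 1.5-fold lower, beside 4.60% of all genes, and 0 higher, beside 3.41%, with a median of −0.41. Cdkn2a was at 12.9 CPM (WT) and 5.21 CPM (F592A) (log2 −1.31, −1.44 to −1.18), Cdkn2c at 34.4 and 22.1 CPM (log2 −0.64, −0.71 to −0.57) and Cdkn2b at 21.1 and 15.1 CPM (log2 −0.48, −0.57 to −0.40). Cdkn1b alone had an interval above 0, at 86.7 and 93.9 CPM (log2 0.11, 0.08 to 0.15). Myc, a driver of S phase entry in the G1 list, was at 46.8 and 62.1 CPM (log2 0.41, 0.36 to 0.45), and it and Cdkn1b were singled out after their values were seen.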

How the data were processed

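Single-cell UMI counts per gene were deposited by the authors, made with Cell Ranger 6.0.1 per the file headers. The build mm10, Seurat and an older Cell Ranger (2.1.1) stand in the submitters' processing notes, and no source used here settles the version. Barcodes with at least 500 genes, 1000 UMIs and at most 15% mitochondrial UMIs were kept, and doublets called by Scrublet in scanpy 1.11.5 (345 WT, 215 F592A) were left out. Cells were gated by marker UMIs per 10000, with at least 3 marker UMIs and cuts placed after the score distributions were seen, and cells passing several gates were left out (260 and 169). UMIs were summed per class and library as CPM. Intervals at 95% are exact Poisson, exact conditional binomial (log2 ratios), Clopper-Pearson (shares) and Katz log (ratios of shares). UMIs of 1 cell are not independent samples of a mouse. The thinned share is the exact mean over all draws, adopted after single draws had proved noisy, with shallower stromal cells (149 and 60) left out. Scaling alternatives used edgeR 4.0.16 and DESeq2 1.42.0 factors. Calculations were tested on simulated data. Values are given in full for the genes with most UMIs, the 5 lowest and 3 highest stromal ratios and each role, and for the 3 largest of each other list. Members and lists were chosen with earlier results of these data known. Mast and Schwann cells were too few to gate. Gene positions were taken from RefSeq GRCm38.p6 promoters and GENCODE M21.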

Additional observations from a re-analysis of the deposited data

Results flagged for a closer look

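In 4 of the 42 genes, among subsets in which a gene had at least 100 UMIs, 2 stromal subsets pointed in opposite directions with counting intervals on both sides of 0; the difference between subsets was not tested, and the intervals are not adjusted for the number of genes and subsets. Mcm10 did the same on fewer UMIs, at 1.19 (0.12 to 2.31) from 13 and 21 UMIs in chondrocyte-like and −1.49 (−2.81 to −0.34) from 32 and 8 in Pi16 fibroblast-like cells. How many of all measured genes point in opposite directions by this rule was not counted. Mcm6, a subunit of the helicase ring, gave 7.67 CPM (WT) and 12.7 CPM (F592A) in chondrocyte-like cells, a log2 ratio of 0.73 (0.43 to 1.02), but 16.2 and 8.51 CPM in the unnamed stromal cells, a log2 ratio of −0.93 (−1.30 to −0.56). Pcna, the sliding clamp, stood at 0.25 (0.12 to 0.38) in chondrocyte-like and at −0.58 (−0.78 to −0.37) in myofibroblast-like cells. Cdt1, the licensing factor that shares its strand with Gm20388, stood at 0.28 (0.05 to 0.51) in tenocyte-like and at −0.61 (−1.16 to −0.09) in myofibroblast-like cells. Slbp, the histone mRNA binder, stood at 0.14 (0.03 to 0.25) in tenocyte-like and at −0.40 (−0.71 to −0.11) in myofibroblast-like cells.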

How the results depend on the processing

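The stromal share ratio of 0.750 was 0.672 at 1000 UMIs, 0.828 at 4000 UMIs, 0.992 without thinning, 0.890 with at least 1 UMI, 0.594 with at least 3 UMIs and 0.675 without Pcna, Dut and Slbp. The mural share ratio was 1.03 without thinning, and 0.940 and 0.721 in 2 single random draws against 0.820 over all draws. Counts of members at least 1.5-fold lower were 1 in macrophages under TMM and under DESeq2 factors, 20 of 42 with no filter and 18 of 40 at 20 UMIs in blood endothelial cells (16.0% and 11.8% of all genes), and 24 of 42 and 22 of 39 in mural cells (15.8% and 12.2%). The stromal median of members minus all genes was −0.18 without mitosis-positive cells. Among single genes, Mcm4 turned to 0.0241 when cells were thinned before summing, and Pola1 to 0.0941, Pold1 to 0.0483 and Pcna to 0.00741 without mitosis-positive cells; the cause was not tested. Beyond those reversals, the stromal log2 ratio left its counting interval in 13 members without mitosis-positive cells, 9 with subsets weighted equally, 8 without myofibroblast-like cells, 6 with TMM factors, 5 with DESeq2 factors and 4 with thinned cells, and in 0 under the other 5 settings. The medians of members minus all genes stayed below 0 in the 4 main classes under every setting run. Keeping doublets and a 10% mitochondrial limit moved no count by over 1.5 times. Counts past the fold were not made again with other gate cuts. No paired analysis was possible because each genotype has 1 library. Single pooled libraries leave differences between mice unmeasured, and members under 100 UMIs in the smaller classes were not compared. The alternatives without shared barcodes and without myofibroblast-like cells were chosen after seeing the data.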
